A study of Mus musculus with 8 samples.

Results

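Lymphocytes of gonadal white fat were followed through 37 marker genes, 20 of T cells, 9 of natural killer (NK) cells and 8 of B cells. A probe was taken where the RefSeq transcript that the scanner files list for it belongs to 1 of these genes, which gave 49 of the 55681 gene probes of the array (27 for T, 12 for NK and 10 for B markers). Of these, 37 probes of 31 genes were well above background on 4 or more of the 8 arrays and were compared between genotypes. The other 12 probes, among them every probe of Cd8a, Ctla4, Ncr1, Eomes, Blk and Pax5, were given by their detection calls alone.

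RAP1, encoded by Terf2ip, is a shelterin subunit that also binds outside telomeres, and the study profiled fat at an age when the knockout mice are not yet obese. One group held 4 Rap1-/- mice, whole-body nulls derived from a floxed Rap1 allele recombined in the early embryo by EIIa-cre, an allele that was then bred out of the colony. The other held 4 wild-type (WT) mice. All were C57BL6/129SV (90%:10%), 10 weeks old and, by the study's text, female, and they shared no other allele or treatment that the labels name. Because every cell of the Rap1-/- mice lacked RAP1, the lymphocytes themselves were mutant as well as the fat around them.

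T cells read antigen through a receptor whose signal passes through the CD3 chains to the kinases LCK and ZAP70, and the coreceptors CD4 and CD8 divide them into helper and cytotoxic cells. NK cells kill with perforin and granzymes, which cytotoxic T cells also carry, so their markers overlap. B cells signal through CD79A and CD79B beneath the B cell receptor. Visceral fat normally holds all of these cells, regulatory T cells expressing FOXP3 among them, and lymphoid aggregates or a lymph node can lie within a fat depot. The arrays measured RNA of the whole tissue, so fewer cells of a type and less of its RNA per cell cannot be told apart.

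Promoter sequences are given for 5 members, 2 of T, 2 of NK and 1 of B cells, as examples of windows that held a searched sequence. RefSeq windows on GRCm38.p6, of 250 bases before to 50 after a start site, were found for 27 of the 37 genes (33 windows). Each is written 5′ to 3′ on the strand of its gene. Capitals mark a match, on either strand, to 1 of 5 sequences searched. Those were CTTTGAT (TCF family, in 3.73% of all 32851 windows of this length), TGTGGTT (RUNX, 5.27%), AGGTGTGA (T-box, 1.28%), CCCNNGGGA (EBF, 6.56%) and ATGCAAAT (octamer, 1.74%). The windows shown lie at chr9:44981536-44981835 (+) for Cd3d, chr4:129573592-129573891 (-) for Lck, chr14:56262285-56262584 (-) for Gzmb, chr7:43436888-43437187 (+) for Nkg7 and chr7:30878979-30879278 (-) for Cd22.
Cd3d, TCF match: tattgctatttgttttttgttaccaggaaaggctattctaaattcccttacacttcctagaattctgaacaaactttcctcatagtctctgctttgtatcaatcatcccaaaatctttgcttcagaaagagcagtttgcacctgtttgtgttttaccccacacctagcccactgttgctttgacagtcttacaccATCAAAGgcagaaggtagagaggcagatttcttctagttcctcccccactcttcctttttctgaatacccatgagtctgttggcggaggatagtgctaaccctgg
Lck, RUNX match: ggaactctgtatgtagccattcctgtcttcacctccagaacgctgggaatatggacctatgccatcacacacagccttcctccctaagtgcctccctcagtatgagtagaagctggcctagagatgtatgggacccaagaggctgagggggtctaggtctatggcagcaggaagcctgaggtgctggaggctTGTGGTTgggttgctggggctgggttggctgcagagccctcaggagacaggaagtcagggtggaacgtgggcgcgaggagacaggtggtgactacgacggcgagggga
Gzmb, RUNX match: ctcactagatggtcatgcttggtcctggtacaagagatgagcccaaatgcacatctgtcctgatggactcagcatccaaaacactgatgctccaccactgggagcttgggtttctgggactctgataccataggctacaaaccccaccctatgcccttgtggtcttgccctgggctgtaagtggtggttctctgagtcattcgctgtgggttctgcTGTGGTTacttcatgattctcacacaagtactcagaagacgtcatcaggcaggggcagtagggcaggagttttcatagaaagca
Nkg7, T-box match: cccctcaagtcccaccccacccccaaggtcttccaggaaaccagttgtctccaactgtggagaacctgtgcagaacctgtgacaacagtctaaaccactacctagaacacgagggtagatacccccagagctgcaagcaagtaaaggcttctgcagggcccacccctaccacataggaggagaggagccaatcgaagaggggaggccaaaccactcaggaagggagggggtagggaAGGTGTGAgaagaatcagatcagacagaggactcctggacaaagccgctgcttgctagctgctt
Cd22, EBF match: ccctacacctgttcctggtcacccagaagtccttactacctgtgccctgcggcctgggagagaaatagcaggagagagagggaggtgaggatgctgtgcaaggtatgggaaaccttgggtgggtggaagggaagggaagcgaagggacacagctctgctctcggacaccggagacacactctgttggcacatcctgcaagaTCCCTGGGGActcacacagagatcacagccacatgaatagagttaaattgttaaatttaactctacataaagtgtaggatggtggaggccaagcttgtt

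Counted from the start site, the match began at -55 in Cd3d, -58 in Lck, -34 in Gzmb and -14 in Nkg7. In Cd22, 2 overlapping EBF matches, 1 on each strand, began at -49 and -48. A RUNX match was also found in windows of Gzma, Il7r and Ncr1, a TCF match in Ctla4 and an EBF match in Il2rg, and 0 of the 33 windows held the octamer. A match is a description of letters and not a site of binding.

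The 75th percentile of the processed signal, to which every level below is relative on the log2 scale, ran from 302 to 497 intensity units, lowest on WT array 3. Between 59.7% and 65.2% of gene spots were well above background and 0 were saturated. Both genotypes were on both slides, with Rap1-/- and WT arrays 1 and 2 on slide 1 and arrays 3 and 4 of each on slide 2. On each slide, however, Rap1-/- samples took positions 3 and 4 and WT samples positions 1 and 2, so position and genotype cannot be told apart. The deleted gene followed the labels. One Terf2ip probe (A_52_P381806) read -7.58, -7.43, -7.13 and -7.58 on the Rap1-/- arrays, well above background on 0 of 4, and 0.06, 0.26, 0.49 and 0.23 on the WT arrays, a signal at least 49.9-fold lower in Rap1-/- against the dimmest signals called above background there (limma adjusted p = 1.90e-07). The other (A_55_P2094079) spanned 0.84 to 1.06 in Rap1-/- fat and -1.49 to -1.27 in WT fat, a log2 difference of 2.38 ± 0.09 (SE, adjusted p = 4.94e-05), and where either probe lies relative to the deleted part is not given in the files. These 2 probes were the sole calls among 33982.

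Of the 37 kept member probes, 30 were well above background on all 8 arrays, Cd3d, Cd3e, Cd3g, Cd4, Cd79b and Ms4a1 among them, so markers of T and of B cells were measured on every array. The other 7 were so on 5 to 7 arrays, those of Tcf7, Klrb1c, Gzmb and Cd79a on 4 Rap1-/- and 3 WT arrays each.

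No lymphocyte marker was called different between Rap1-/- and WT fat. At an adjusted p under 0.05 (limma, Benjamini-Hochberg over all 33982 kept probes), 0 of the 37 member probes passed, beside 0.00589% of all probes. At an unadjusted p under 0.05 the count was again 0 of 37, beside 4.83%, and the genotypes failed to overlap for 0 of 37, beside 3.16%. The smallest adjusted p among the members was 0.897. The means of 20 of the 31 kept genes were higher in Rap1-/- and those of 11 lower, with a median log2 difference of 0.05, against -0.04 over all probes, of which 40.4% had the higher mean in Rap1-/-.

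Differences ran from -0.37 for Cd4 to 0.46 for Ms4a1. Their 95% intervals reached from -0.99 at the lowest, a 1.98-fold higher WT level of Tbx21, to 1.24 at the highest, a 2.36-fold higher Rap1-/- level of Ms4a1. For 27 of the 31 genes the whole interval lay within 1 log2 unit of no difference, the exceptions being Cd8b1, Gzmb, Ms4a1 and Pou2af1. Narrowest was the interval of Il2rg, the common gamma chain of cytokine receptors (half-width 0.22), and widest that of Pou2af1 (0.85). Smaller changes were not resolved with 4 arrays a genotype.

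**Figure D1:**
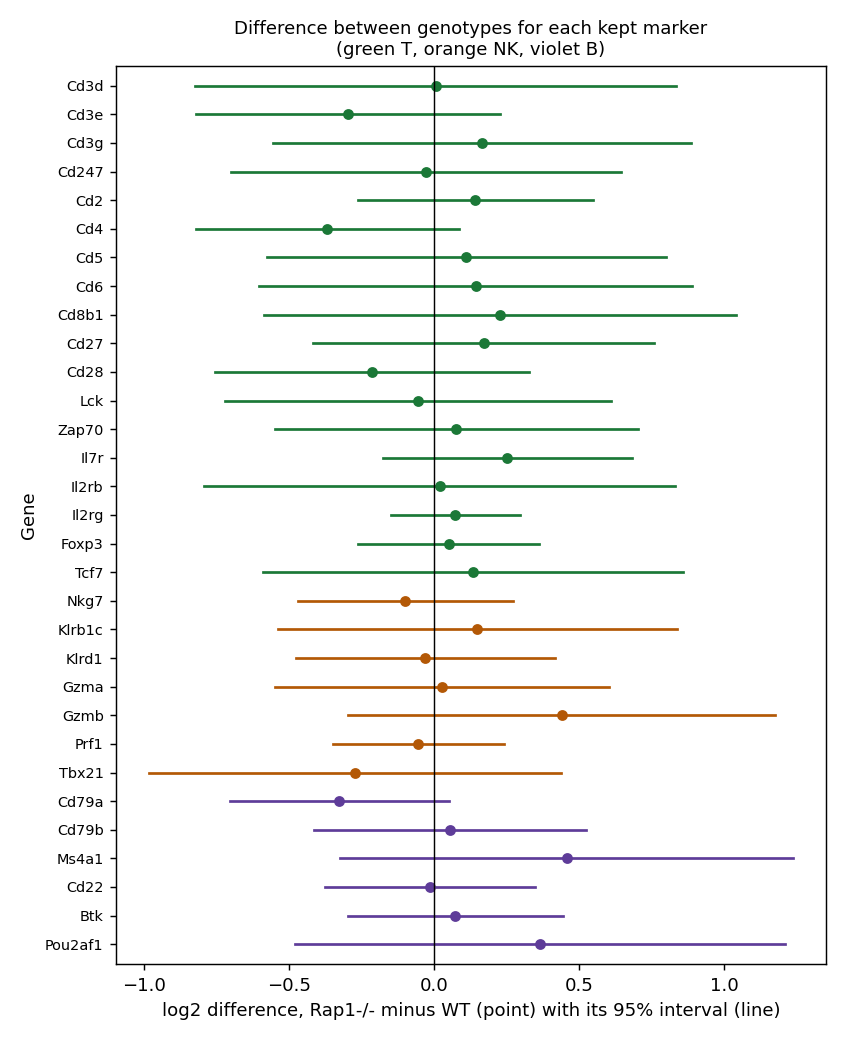
Log2 difference, Rap1-/- minus WT (x axis, log2 units), for each of the 31 kept marker genes (y axis), as the limma estimate (point) with its 95% interval (line). Every interval crosses 0, and estimates run from -0.37 (Cd4) to 0.46 (Ms4a1).

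Among T cell markers, 18 of 20 genes were kept. The mean was higher in Rap1-/- for 13 and lower for 5, with a median difference of 0.07. The count moved with the scaling, to 16 of 18 with E1A spike-in scaling, which shifted the median of all probes by 0.22, and to 6 of 18 after normexp background correction. Relative to the median of all probes, the T marker median was 0.11 in the main setting and with E1A scaling, and 0.02 after normexp. Cd3d, Cd3e and Cd3g encode the chains that carry the signal of the T cell receptor. Cd3d read -1.96, -1.71, -2.89 and -1.73 on Rap1-/- arrays 1 to 4, against -2.31, -2.54, -1.16 and -2.29 on WT arrays 1 to 4. The lowest array of all was Rap1-/- 3 and the highest WT 3, and the means were nearly the same (-2.07 ± 0.56 in Rap1-/- fat and -2.08 ± 0.62 in WT fat, SD over 4 arrays each, with a difference of 0.0038 ± 0.36, SE, and a limma adjusted p of 0.999). Cd3g read -2.52, -2.14, -3.26 and -2.52 in Rap1-/-, against -3.12, -3.01, -1.96 and -3.00 in WT. Rap1-/- 3 was again lowest and WT 3 highest, while 3 of 4 Rap1-/- arrays lay above the other 3 WT arrays (difference 0.16 ± 0.31, adjusted p = 0.955). Cd3e read 0.24, 0.55, 0.43 and 0.69 in Rap1-/-, against 0.67, 0.25, 1.40 and 0.78 in WT. Its highest array was WT 3, its lowest Rap1-/- 1, and the mean was lower in Rap1-/- (difference -0.30 ± 0.23, adjusted p = 0.900). The 3 chains of 1 complex thus differed in the sign of their mean difference, and each 95% interval crossed 0. The zeta chain Cd247 averaged -3.63 in Rap1-/- and -3.60 in WT.

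Cd4, the helper cell coreceptor, had the smallest p of the T markers. Its brighter probe read 1.80, 1.88, 1.91 and 2.08 in Rap1-/-, against 2.39, 1.79, 2.79 and 2.19 in WT. Of the WT arrays, 3 lay above every Rap1-/- array and WT 2 below them all, so the genotypes overlapped through 1 array. Cd4 averaged 1.92 ± 0.12 in Rap1-/- fat and 2.29 ± 0.42 in WT fat (SD over 4 arrays each), a difference of -0.37 ± 0.20 (SE, limma adjusted p = 0.897). Without WT 2 it was -0.53 (adjusted p = 0.553). A second Cd4 probe was much dimmer, with a mean of -3.94 over all arrays against 2.10. It gave -0.17 ± 0.14 (adjusted p = 0.903), and its lowest array was Rap1-/- 1, not WT 2. Of the cytotoxic coreceptor, Cd8b1 was kept (difference 0.23 ± 0.35, adjusted p = 0.941). Neither Cd8a probe was: 1 was above background on 2 Rap1-/- arrays and 1 WT array, the other on 0.

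Il7r, the interleukin-7 receptor that maintains naive and memory T cells, read -3.04, -3.41, -3.53 and -3.73 in Rap1-/-, against -4.03, -3.33, -3.65 and -3.71 in WT. Its highest array was Rap1-/- 1 and its lowest WT 1, with the rest interleaved (difference 0.25 ± 0.19, adjusted p = 0.899). Foxp3, the transcription factor of regulatory T cells, read -3.85, -3.90, -3.91 and -3.95 in Rap1-/-, against -3.84, -3.93, -3.70 and -4.34 in WT. The 4 Rap1-/- values sat within the WT range, with an SD of 0.04 in Rap1-/- and 0.27 in WT (difference 0.05 ± 0.14, adjusted p = 0.972). The checkpoint receptor Ctla4, carried by the same cells, was above background on 0 of 8 arrays.

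The remaining T markers included the kinases Lck (-0.06 ± 0.29) and Zap70 (0.08 ± 0.27), which act just beneath the T cell receptor. The surface glycoproteins Cd2 (0.14 ± 0.18), Cd5 (0.11 ± 0.30) and Cd6 (0.14 ± 0.33) tune adhesion and signal strength, and the costimulatory receptors are Cd27 (0.17 ± 0.26) and Cd28 (-0.21 ± 0.24). The cytokine receptor chains were Il2rb (0.02 ± 0.35) and Il2rg (0.07 ± 0.10), and the factor of naive and memory T cells was Tcf7 (0.13 ± 0.32). Each is given as log2 difference ± SE, and adjusted p ran from 0.922 for Cd28 to 0.997 for Il2rb. Second probes of Cd2 (0.21), Cd6 (0.09) and Zap70 (0.03) had the sign of the first, and those of Cd27 and Tcf7 were not kept.

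Of the NK markers 3 of 7 kept genes were higher in Rap1-/- and 4 lower, with a median difference of -0.03. This count moved with the scaling too, to 6 of 7 with E1A scaling (median 0.19), 5 of 7 with median scaling and 0 of 7 after normexp. Nkg7, a granule membrane protein of NK and cytotoxic T cells, read 0.85, 0.98, 0.91 and 1.13 in Rap1-/-, against 1.02, 0.70, 1.49 and 1.06 in WT. WT held both its highest array (WT 3) and its lowest (WT 2), and the Rap1-/- values lay between (difference -0.10 ± 0.16, adjusted p = 0.944). Its second probe differed by 0.04 ± 0.37. Klrb1c, the NK1.1 receptor gene, read -3.34, -4.10, -4.27 and -3.62 in Rap1-/-, against -3.82, -4.62, -3.35 and -4.13 in WT. Rap1-/- 1 and WT 3 were highest and close to each other (difference 0.15 ± 0.30, adjusted p = 0.957).

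Gzmb, the granzyme that triggers apoptosis in target cells, read -3.05, -3.95, -3.82 and -3.27 in Rap1-/-, against -3.88, -4.73, -3.27 and -3.95 in WT. Rap1-/- 1 was highest and WT 2 lowest, with WT 3 level with Rap1-/- 4. The difference of 0.44 ± 0.32 was the largest of the NK markers (adjusted p = 0.897). For Gzmb it was 0.66 with E1A scaling, 0.12 with the deposited values and -0.02 after normexp. Gzma (0.03 ± 0.25) and the pore former Prf1 (-0.06 ± 0.13) came from the same granules and differed less in the main setting.

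Tbx21, which encodes T-bet, a factor of NK cells and type 1 helper T cells, read -2.82, -2.37, -3.61 and -2.55 in Rap1-/-, against -2.84, -2.85, -1.89 and -2.68 in WT. The lowest array was Rap1-/- 3 and the highest WT 3, as for Cd3d and Cd3g (difference -0.27 ± 0.31, adjusted p = 0.922). Klrd1, the CD94 receptor chain, differed by -0.03 ± 0.19. Ncr1, which encodes the NKp46 receptor and is among the markers most restricted to NK cells, was above background on 2 Rap1-/- arrays and 0 WT arrays. The 2 Eomes probes were so on 1 array of each genotype and on 0 of 8. Most of the kept NK markers are also expressed by cytotoxic T cells.

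B markers had 6 kept genes of 8, of which 4 were higher in Rap1-/- and 2 lower, with a median difference of 0.06. Cd79a and Cd79b encode the paired signalling chains of the B cell receptor. Cd79a read -4.52, -4.59, -4.25 and -4.20 in Rap1-/-, against -3.78, -4.20, -4.40 and -3.86 in WT. WT 1 and WT 4 lay above every other array and the remaining 6 overlapped, and the difference of -0.33 ± 0.16 had the smallest p of all members (adjusted p = 0.897). The Cd79a difference was -0.20 after normexp and -0.05 with the deposited values. Cd79b read -0.23, -0.34, -0.22 and -1.11 in Rap1-/-, against -0.68, -0.64, -0.43 and -0.36 in WT. Rap1-/- 4 was far below the rest, and the other 3 Rap1-/- arrays were the highest of all (difference 0.05 ± 0.21, adjusted p = 0.983). Without Rap1-/- 4 the Cd79b difference was 0.27.

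Ms4a1, the gene of the B cell surface protein CD20, read -2.38, -1.77, -1.90 and -3.22 in Rap1-/-, against -2.71, -2.73, -3.34 and -2.31 in WT. Rap1-/- 2 and 3 were highest, WT 3 lowest and Rap1-/- 4 next to lowest, so a difference of 0.46 ± 0.34 came with an SD of 0.66 in Rap1-/- and 0.42 in WT (adjusted p = 0.899). Without Rap1-/- 4 it was 0.76 (adjusted p = 0.848). With all arrays the Ms4a1 difference was 0.14 after normexp and 0.26 with the deposited values. Pou2af1, a coactivator of octamer-binding factors in B cells, read -2.69, -0.76, -2.04 and -2.02 in Rap1-/-, against -2.12, -1.93, -2.51 and -2.41 in WT. Rap1-/- arrays were both highest (Rap1-/- 2, by more than 1 log2 unit) and lowest (Rap1-/- 1), with a difference of 0.36 ± 0.37 (adjusted p = 0.915). Without Rap1-/- 2 the Pou2af1 difference was -0.01, and without Rap1-/- 1 it was 0.63. The inhibitory receptor Cd22 differed by -0.02 ± 0.16 and the kinase Btk, shared with myeloid cells, by 0.07 ± 0.16, or 0.19 ± 0.39 on its second probe. Pax5, the factor that fixes B cell identity, had 2 probes and the kinase Blk 1, all above background on 0 of 8 arrays, so B cells rest here on markers other than their defining factor.

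**Figure D2:**
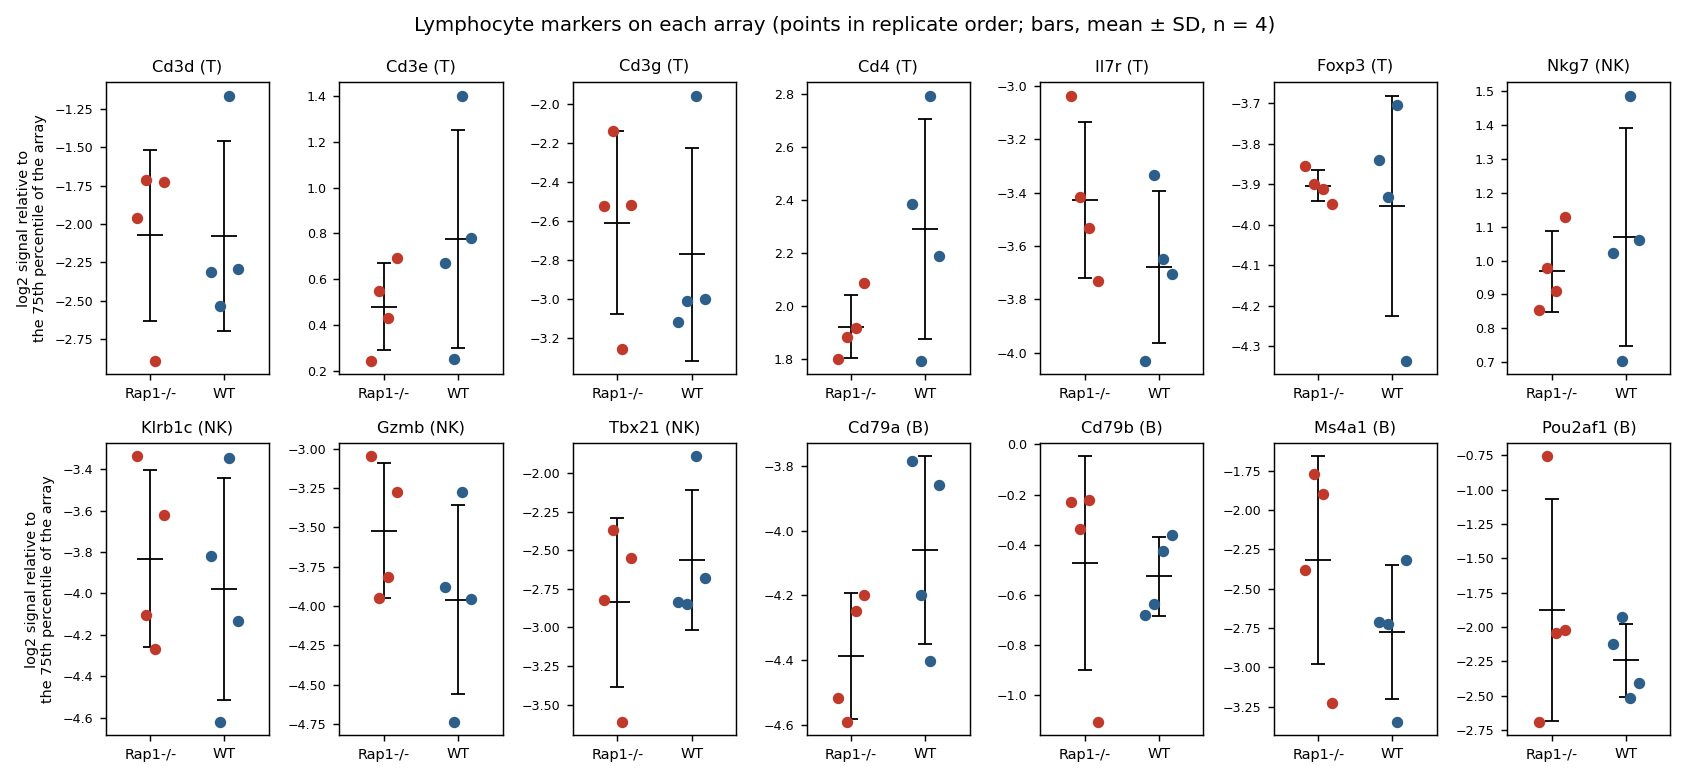
Level of 14 lymphocyte markers on each array (y axis, log2 signal relative to the 75th percentile of the array, with a scale of its own in each panel), with Rap1-/- in red and WT in blue, points in replicate order and bars for mean ± SD (n = 4 each). The genotypes overlap in every panel, and WT 3, the third blue point, is the highest WT array for Cd3d, Cd3e, Cd3g, Cd4, Foxp3, Nkg7, Klrb1c, Gzmb and Tbx21. WT 3 is also the highest WT array for 34.1% of all kept probes.

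These genes varied more between arrays of a genotype than most. With 1 array per mouse, differences between mice and measurement noise cannot be told apart. The members were also dimmer, with a median level of -2.48 for member probes against -1.06 over all kept probes. Spread was not compared at a matched level. The median pooled SD was 0.45 for T, 0.40 for NK and 0.28 for B markers, against 0.21 over all kept probes, and 32 of the 37 member probes lay above that value. T markers, each centred on its own mean over the 8 arrays, averaged 0.08, 0.19, -0.36 and 0.15 on Rap1-/- arrays 1 to 4 and -0.22, -0.21, 0.51 and -0.14 on WT arrays 1 to 4. NK markers averaged 0.23, -0.05, -0.34 and 0.20 in Rap1-/- and -0.10, -0.41, 0.50 and -0.03 in WT. Both lists were highest on WT 3 and low on Rap1-/- 3, but NK markers were lowest on WT 2, and on Rap1-/- 2 the T mean was above 0 and the NK mean below. B markers averaged 0.0035, 0.32, 0.10 and -0.23 in Rap1-/- and -0.04, -0.0017, -0.17 and 0.01 in WT, with neither array standing out in this scaling. With median, quantile and E1A scaling, however, the B mean was lowest on WT 3 (-0.34, -0.27 and -0.62). The NK mean was highest on Rap1-/- 1, not WT 3, with median (0.34) and E1A scaling (0.46).

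Gene by gene, Rap1-/- 3 was the lowest of the 8 arrays for 7 of 18 T, 3 of 7 NK and 0 of 6 B markers, beside 8.35% of all probes. WT 3 was the highest for 12 of 18 T and 5 of 7 NK markers but 1 of 6 B markers, beside 24.7%. Against the other arrays of its genotype, Rap1-/- 3 stood at a median of -0.56 for T, -0.47 for NK and 0.04 for B markers. WT 3 was higher by 0.91 for T and 0.62 for NK markers and lower for B markers (-0.13). These arrays were singled out after their values were seen, and their difference is a description of 2 mice. Without WT 3, 16 of 18 T markers had the higher mean in Rap1-/- and the median was 0.24. Without Rap1-/- 3 the count was 15 of 18 and the median 0.23, while without WT 1 or WT 2 it was 8 of 18. Single arrays thus moved the count in either direction.

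**Figure D3:**
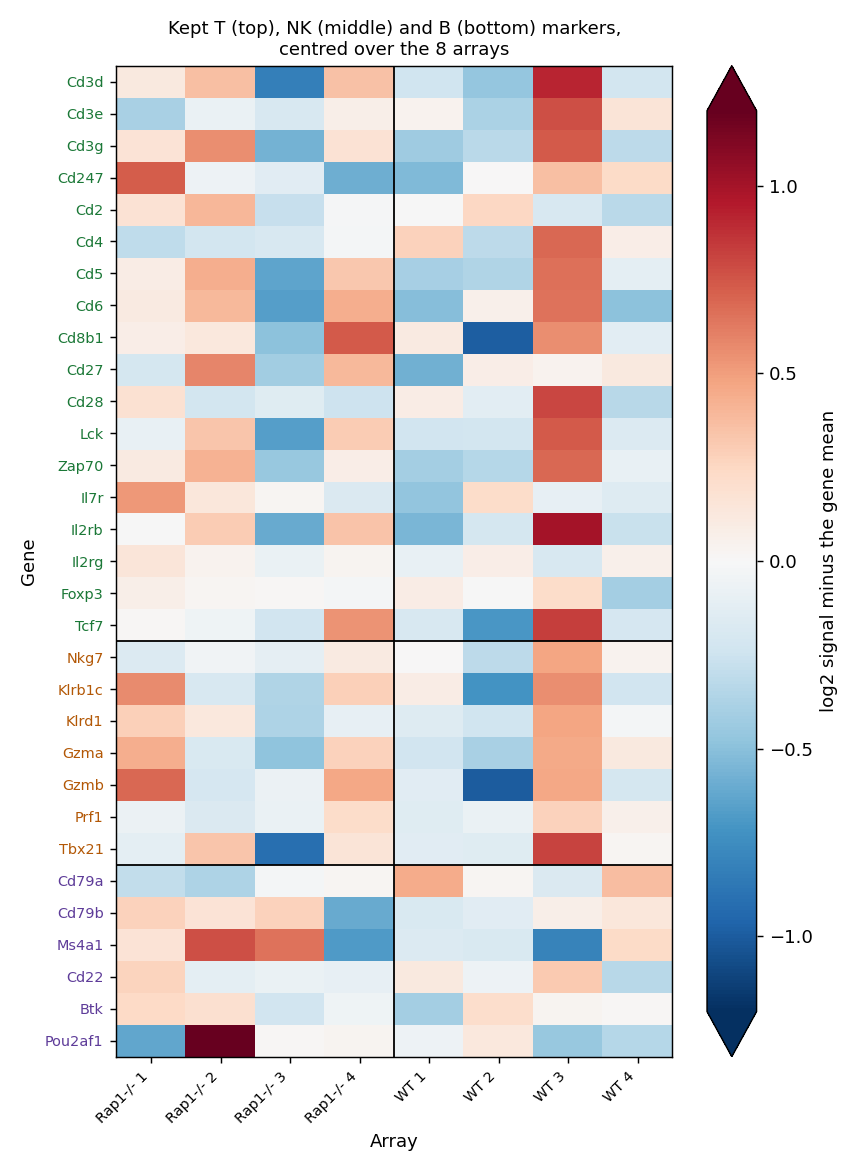
Log2 signal minus the mean of the gene over the 8 arrays (colour, red above and blue below, saturating at the ends of the scale), for 31 kept markers (rows, T above, NK between and B below) on each array (columns, Rap1-/- left and WT right). WT 3 is red for most T and all 7 NK markers, Rap1-/- 3 is blue for most of them, and the B markers show neither.

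The 2 slides gave opposite directions. On slide 1 the median difference, Rap1-/- minus WT, was 0.45 for T, 0.40 for NK and 0.31 for B markers, and on slide 2, which held both WT 3 and Rap1-/- 3, it was -0.42, -0.25 and -0.09. In all, 20 of the 31 members were higher in Rap1-/- on slide 1 and lower on slide 2 (12 T, 5 NK and 3 B markers), beside 19.3% of all probes, and 0 went the other way, beside 22% of all probes. With E1A scaling the slide 2 medians were -0.15 for T, 0.01 for NK and 0.18 for B markers, against 0.23 over all probes there, so the opposite sign held for T markers alone. Under the other scalings all 3 lists kept opposite signs. With 2 arrays of a genotype on each slide, a genotype difference that varies with the slide cannot be told apart from differences between individual mice. Within either slide 0 members passed the adjusted threshold.

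Differences between lists within an array set aside how arrays were scaled, though not how background was corrected. T minus B, the difference of the 2 centred means within an array, is untouched by any constant added to that array. It was 0.08, -0.13, -0.46 and 0.38 in Rap1-/- and -0.18, -0.21, 0.68 and -0.16 in WT, highest on WT 3 and lowest on Rap1-/- 3. After normexp it was -0.25 on Rap1-/- 3 and 0.34 on WT 3, and with the deposited values -0.26 on Rap1-/- 3 and 0.37 on WT 3, again the ends of the range. NK minus B was likewise lowest on Rap1-/- 3 (-0.44) and highest on WT 3 (0.67), though lowest on Rap1-/- 2 after normexp and in the deposited table, whereas T minus NK spanned 0.39 over the 8 arrays, against 1.14 for T minus B. T minus pan-leukocyte genes, which all white blood cells express, ran from -0.25 on Rap1-/- 3 to 0.45 on WT 3, and was lowest on Rap1-/- 1 after normexp. With levels scaled to the spiked-in E1A controls, the T mean of WT 3 was 0.06 and Rap1-/- 2 was highest, but Rap1-/- 3 was lowest under each of the 6 scalings.

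Other genes of the same cells, taken from lists that overlap with no member, followed in part. Of 41 further T cell genes 25 were kept, 13 higher and 12 lower in Rap1-/-, with a median of 0.02. Rap1-/- 3 stood at a median of -0.33 relative to the other Rap1-/- arrays, and WT 3 above the other WT arrays by 0.41. The list's T minus B difference was highest on WT 3 (0.21), closely followed by Rap1-/- 2 (0.20), and lowest on Rap1-/- 3 (-0.15), with WT 1 at -0.11. The mean of these T genes was highest on Rap1-/- 2, not WT 3, with median, quantile and E1A scaling and in the deposited table, and with E1A scaling WT 3 stood at -0.19. Of 32 further NK and innate lymphoid genes 19 were kept, 8 higher and 11 lower, with a median of -0.04. WT 3 stood above the other WT arrays by a median of 0.41. Rap1-/- 3 had the lowest mean of this list (-0.22), but its median relative to the other Rap1-/- arrays was -0.02. It was the lowest of the 8 arrays for 2 of 19 genes and the highest for 2 of 19. The mean of these NK genes was highest on Rap1-/- 1, not WT 3, with median (0.25) and E1A scaling (0.38). With E1A scaling WT 3 stood at -0.04. The lowest mean was on Rap1-/- 4 after normexp and on WT 4 in the deposited table. The granzymes Gzmm (-0.37 ± 0.14) and Gzmk (-0.31 ± 0.13) had an unadjusted p under 0.05 and an adjusted p of 0.897. They were 2 of the 19 kept genes, beside 4.83% of all probes with such an unadjusted p. Of 31 further B and plasma cell genes 29 were kept, 14 higher and 15 lower, with a median of -0.02, and their array means spanned 0.13. Of 25 antigen receptor signalling genes 23 were kept, 17 higher and 6 lower, with a median of 0.04. In these 4 lists 0 genes passed the adjusted threshold.

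**Figure D4:**
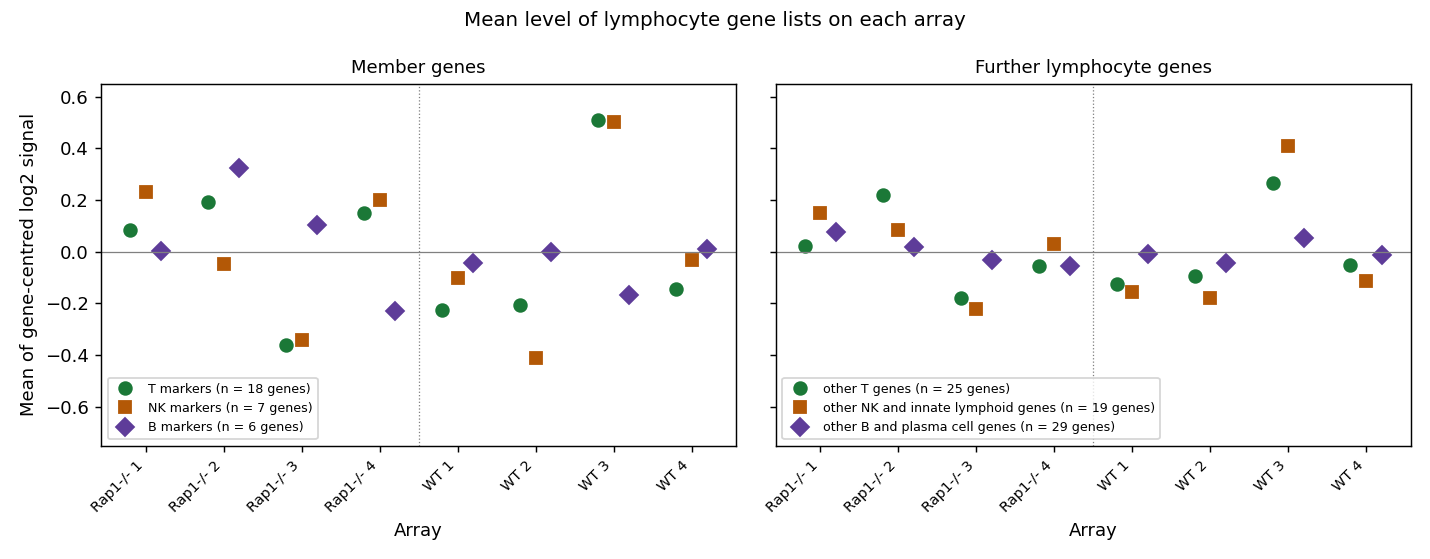
Mean over genes of the gene-centred log2 signal (y axis) on each array (x axis, Rap1-/- left and WT right), for the T, NK and B markers (left panel) and for further genes of the same cells (right panel). With this scaling the means of T and NK lists are highest on WT 3 and low on Rap1-/- 3 in both panels, and the B lists are not. For the further NK genes, the median on Rap1-/- 3 relative to the other Rap1-/- arrays was -0.02.

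Markers of other cells also differed between the arrays. Mesothelial markers, the lining of the depot, were higher in Rap1-/- for 8 of 8 (median 0.64), and their array means ran from 0.14 to 0.43 in Rap1-/- and from -1.06, on WT 3, to 0.25 in WT. Macrophage markers were higher for 15 of 17 (median 0.15) and averaged -0.06 on Rap1-/- 3 and -0.07 on WT 3. Adipocyte markers were lower for 8 of 9 (median -0.21), with array means from -0.16 to 0.03 in Rap1-/- and from 0.01 to 0.11 in WT. Dendritic cell markers averaged -0.10 on Rap1-/- 3 and 0.18 on both WT 3 and WT 2. Their means were lower than on Rap1-/- 3 on WT 1 (-0.19) and Rap1-/- 4 (-0.14). Relative to the other WT arrays, these genes ran on WT 3 from -0.22 for Itgax to 0.80 for Clec9a (median 0.24). Blood cell markers were lower for 6 of 7. Their array means were highest on WT 4 (0.69) and lowest on Rap1-/- 2 (-0.71), with -0.20 on Rap1-/- 3 and 0.37 on WT 3. Against the other WT arrays, WT 3 stood at a median of 0.02, with the neutrophil genes S100a8 and S100a9 at 1.12 and 1.88. The red cell genes of the list stood there at -0.73 to -0.57. Skeletal muscle markers spanned 8.67 log2 units over the arrays, highest on Rap1-/- 2. Of 9 stromal genes of lymphoid tissue 6 were kept, with a mean of -0.24 on Rap1-/- 3 and -0.21 on WT 3. Unadjusted limma p was under 0.05 for 4 of 9 adipocyte, 2 of 8 mesothelial and 1 of 7 blood markers, beside 4.83% of probes. The genotypes failed to overlap for 2, 2 and 1 of them, beside 3.16% of probes. The other lists of this paragraph had 0 of either kind. In all these lists 0 genes passed the adjusted threshold, and the part of such cells in the lymphocyte values was not tested.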

How the data were processed

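Gonadal white fat RNA of 4 Rap1-/- and 4 WT mice was labelled with Cy3 by the authors and run on Agilent mouse arrays, 1 per mouse. The deposited scanner files hold intensities, background and detection flags for each spot from Feature Extraction 10.7.3.1, without normalization between arrays, on a design built for mm9 per the file headers. A deposited series table holds log2 values, which normexp (offset 50) and then quantile normalization matched to a median of 0.00465 or less on every array. The submitters' processing notes list limma, with no version.

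Here, log2 processed signal minus the 75th percentile of the array was averaged over a probe's spots, leaving out control and outlier spots. RefSeq accessions and a GRCm38.p6 table gave names to 26056 of 55681 probes (46.8%). A probe was kept when flagged above background on 4 or more of 8 arrays (33982 probes), and the kept probe with the highest mean stood for its gene. Rap1-/- and WT were compared with limma 3.58.1 in R 4.3.3 (lmFit and eBayes, all 8 arrays, no covariate), with Benjamini-Hochberg adjustment over all kept probes, a threshold of 0.05 and 95% intervals. The fit was tested on simulated data. Arrays of a genotype are biological replicates, and their number limits the precision.

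Values are given on every array for the lineage-defining members and for the 3 with the smallest p in each list, and at most 3 genes of any other list are named. Members and lists were chosen with earlier results of these data known. Alternative settings changed the background correction (normexp, on median spot signals), the scaling, the source of values, the filter, the probe for a gene, the blocks, the variance model or the arrays used. Figures were drawn with matplotlib 3.10.9.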

Additional observations from a re-analysis of the deposited data

Results flagged for a closer look

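Within a genotype of 4 arrays, a value was marked where the gap to its nearest neighbour took more of the whole range than the 95% critical value of Dixon's test allows, which chance alone does in about 1 in 20 groups. This held for 6 of 74 groups of a kept member probe and for 1 of 6 list means. The rule was not applied to all kept probes, so their share cannot be set beside these counts. Of the marked values, 3 came from WT array 3, which was above every other WT array for 34.1% of all kept probes. There the mean of the T markers was 0.51, against -0.22 to -0.14 on the other WT arrays, Lck read 0.28, against -0.68 to -0.62, and Cd3g read -1.96, against -3.12 to -3.00. On Rap1-/- array 3 the dimmer Nkg7 probe read -3.04, against -1.90 to -1.80 on the other Rap1-/- arrays.

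The other 3 values came from 3 different arrays. Cd79b read -1.11 on Rap1-/- array 4, against -0.34 to -0.22 on the other Rap1-/- arrays. Cd22 read -0.53 on Rap1-/- array 1, against -0.92 to -0.89. Cd27 read -4.94 on WT array 1, against -4.32 to -4.25 on the other WT arrays, and this probe was well above background on 3 Rap1-/- and 4 WT arrays. What set these arrays apart was not tested.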

How the results depend on the processing

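In each of 22 alternative settings 0 member probes passed the adjusted threshold, and the smallest adjusted p in any of them was 0.553, for Cd4 without WT replicate 2. Over all probes, the count lower in Rap1-/- was 2 after normexp correction, 2 in the deposited table, 2 with a trended and robust variance, and 0 with a filter on all 8 arrays, 0 with 1 probe a gene and 0 within slide 2. The count higher was 0 with the mean of a gene's probes, 0 within slide 1 and 0 within slide 2. Member probes with an unadjusted p under 0.05 numbered 1 with E1A scaling (Gzmb, beside 5.9% of all probes), 6 within slide 1 (beside 4.42%), 2 within slide 2 (beside 3.63%) and 0 to 2 when 1 array was left out (beside 3.39% to 8.88%). Within slide 1 the median differences were 0.45 for T, 0.40 for NK and 0.31 for B markers, and within slide 2 that of the T markers was -0.42. With E1A scaling the B median was 0.29. Leaving out 1 array at a time moved the T median between -0.03 and 0.24, the NK median between -0.10 and 0.12 and the B median between -0.01 and 0.18. Of 14 named genes 9 changed sign in some setting, none past the threshold on either side. Same-numbered Rap1-/- and WT arrays did not deviate together (r from -0.21 to -0.10), and with the replicate block the counts stayed at 1 higher and 1 lower, with list medians of 0.07, -0.03 and 0.06. Some settings use fewer probes or arrays, and the cause of these shifts was not tested.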
